A study of Mus musculus with 14 samples.

Results

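Caveolae are small flask-shaped pits of the plasma membrane, common in fibroblasts, endothelial cells, muscle, pericytes and adipocytes. Caveolin proteins insert into the inner leaflet and bind cholesterol, cavins form a coat over them, and the ATPase encoded by Ehd2 holds the neck of the pit at the membrane. Caveolae are known to flatten under stretch, to hold receptors and lipids, and in connective tissue to be controlled by matrix stiffness and YAP/TAZ signalling. The 8 genes described here are the 3 caveolin genes Cav1, Cav2 and Cav3, the 4 cavin genes Cavin1, Cavin2, Cavin3 and Cavin4, and Ehd2. They are 8 of 47729 genes in the count table. They were selected by family membership, matched by symbol to gene IDs, by someone who already knew results of these data, so their levels and tests in these groups are a description and not independent support for a direction.

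RNA was measured in 14 libraries of cells sorted from the knee synovium of C57BL6 mice aged 16 weeks. The group CD105_AIA holds 5 libraries of CD200-CD105+ cells and the group CD200_AIA 5 libraries of CD200+CD105- cells, both from mice with antigen-induced arthritis. The antigen was mBSA (methylated bovine serum albumin), given first with complete Freund's adjuvant and later into the joint. The 4 libraries of the group CD200_NI are of the same CD200+CD105- phenotype, from mice that were not immunized and received phosphate buffered saline each time. All cells were live, TER119-, CD31-, CD45- and CD51+, and were taken 10 days after the joint injection. A library holds 200 to 500 cells amplified with a SMART-Seq v4 kit, with ERCC spike-in RNA added. No genetic change is given for any group. Whether libraries of a group came from separate animals, or CD105_AIA and CD200_AIA cells from the same ones, is not stated, so p-values measure the spread between these samples, which may be technical.

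Promoters of 4 genes are shown because the genes they belong to carry the patterns below: Cav1 and Cav2 are neighbours whose levels differed in spread, Cavin1 marks the shared fall, and Cavin2 had no count in CD105_AIA. Each sequence is 300 bases from RefSeq (GRCm38.p6), 5′ to 3′ on the gene's own strand, from 250 bases before the start to 50 after it. Capitals mark matches on either strand to the GC box motif GGGCGG, the TEAD motif GGAATG, the E-box motif CACGTG, the motif TATAAA of the usual TATA box, or the CArG box. For Cav1 and Cavin1 the table holds 2 entries, and the first is used. The start in the table is that of the GENCODE gene for Cav1, Cav2 and Cavin2, but for Cavin1 it lies 270 bases downstream of it, so the Cavin1 sequence lies within the annotated gene.
Cav1 (chr6:17306085-17306384, plus strand): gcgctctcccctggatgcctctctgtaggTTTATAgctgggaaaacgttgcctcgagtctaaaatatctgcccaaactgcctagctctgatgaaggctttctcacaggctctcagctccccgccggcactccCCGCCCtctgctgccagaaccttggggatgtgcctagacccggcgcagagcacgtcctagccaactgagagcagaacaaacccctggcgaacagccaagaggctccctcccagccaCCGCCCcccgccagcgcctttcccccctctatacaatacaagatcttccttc
Cav2 (chr6:17280935-17281234, plus strand): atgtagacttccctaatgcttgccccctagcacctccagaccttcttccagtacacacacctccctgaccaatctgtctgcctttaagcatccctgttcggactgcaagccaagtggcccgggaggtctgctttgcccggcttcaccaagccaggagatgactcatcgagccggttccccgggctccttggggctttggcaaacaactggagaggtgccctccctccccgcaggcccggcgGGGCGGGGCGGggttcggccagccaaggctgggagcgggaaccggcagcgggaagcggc
Cavin1 (chr11:100970568-100970867, minus strand): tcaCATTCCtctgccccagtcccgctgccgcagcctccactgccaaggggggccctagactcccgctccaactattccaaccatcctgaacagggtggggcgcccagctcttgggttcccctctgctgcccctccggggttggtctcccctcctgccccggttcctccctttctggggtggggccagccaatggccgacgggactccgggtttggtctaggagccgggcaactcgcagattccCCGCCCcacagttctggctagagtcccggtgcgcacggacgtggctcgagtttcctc
Cavin2 (chr1:51288876-51289175, plus strand, chosen after its values were seen): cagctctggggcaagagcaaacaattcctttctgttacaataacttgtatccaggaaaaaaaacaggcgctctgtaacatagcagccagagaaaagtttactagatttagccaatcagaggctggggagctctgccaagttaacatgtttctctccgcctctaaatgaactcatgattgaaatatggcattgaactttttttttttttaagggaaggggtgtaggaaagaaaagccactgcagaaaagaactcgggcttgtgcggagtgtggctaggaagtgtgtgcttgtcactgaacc
The Cav1 sequence has GC boxes 118 and 2 bases before the start and a TATA box on the other strand 221 bases before it. In Cav2 both GC boxes, 9 and 4 bases before the start, overlap by a base. Cavin1 has 1 GC box 7 bases before the start in the RefSeq table and a TEAD motif 247 bases before it. Cavin2 held none of the motifs searched, and its GC content was 43.3%, against 59.3% in Cav1, 64.3% in Cav2 and 66.7% in Cavin1. The median over all 32817 promoters of the table was 52.7%. A sequence was found for 7 of the 8 genes, all but Cavin3. Of the 7, the GC box was found in 4 (Cav1, Cav2, Cavin1 and Ehd2), and 35.63% of all promoters hold it. The TEAD motif was found in Cavin1 and Cav3 and in 14.66% of all promoters, and the TATA box in Cav1 and Cavin4 and in 13.62% of all. The E-box (7.15% of all) and the CArG box (1.63% of all) were found in 0 of the 7. A match is a description of letters, not of a bound site.

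Counts on mouse genes ran between 5968096 and 18553803 per library in CD105_AIA, 2919666 and 15371670 in CD200_AIA, and 5365927 and 18203642 in CD200_NI. Spike-ins took 20.3 to 55.6% of all counts in CD105_AIA, 43.5 to 92.0% in CD200_AIA and 47.5 to 85.4% in CD200_NI, and over 80% in libraries 5 and 6 of CD200_AIA and library 2 of CD200_NI. Levels are gene counts scaled by TMM to a common library total, in CPM. Cd200 transcripts stood at 0 CPM in 4 CD105_AIA libraries and 11.4 CPM in library 12, against 318 to 541 CPM in CD200_AIA and 428 to 796 CPM in CD200_NI. Eng, which encodes CD105, was low in every group and overlapped, at 0 to 11.1 CPM in CD105_AIA, 0 to 1.35 CPM in CD200_AIA and 0.315 to 12.2 CPM in CD200_NI. Itgav, which encodes CD51, was at 0.888 to 23.9 CPM in CD105_AIA, 1.82 to 140 CPM in CD200_AIA and 8.07 to 82.5 CPM in CD200_NI, and Pecam1, which encodes CD31, was at 2.78 CPM or less in every library. Ptprc, which encodes CD45, had counts in 4 CD105_AIA libraries (2.21 to 17.3 CPM, library 10 at 0), was at 0.0752 CPM or less in CD200_AIA, and in CD200_NI had 19.6 CPM in library 4 and 0 in the other 3 libraries (log2 difference 7.92 for CD105_AIA against CD200_AIA, SE 2.64, edgeR adjusted p = 0.0684).

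Cavin1, Cavin2 and Cavin3 fell in CD105_AIA relative to both CD200+ groups, and Cav1 fell relative to CD200_AIA. Cavin2 was not detected at all in CD105_AIA. The CD200+ groups of arthritic and non-immunized mice overlapped for each gene detected in them, and none of these genes passed between them. Summed over the 8 genes, the level was 63.9 to 155 CPM in CD105_AIA libraries, 610 to 1244 in CD200_AIA and 542 to 1185 in CD200_NI. In bulk libraries, fewer cells that carry a transcript and less of it per cell cannot be told apart. Of the 8 genes, 7 passed the filter on low counts (all but Cavin4) and were tested with edgeR across 15015 genes. A gene is called where its adjusted p is under 0.05, and a negative log2 difference means lower in the group named first. SE is the standard error of that difference.

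**Figure D1:**
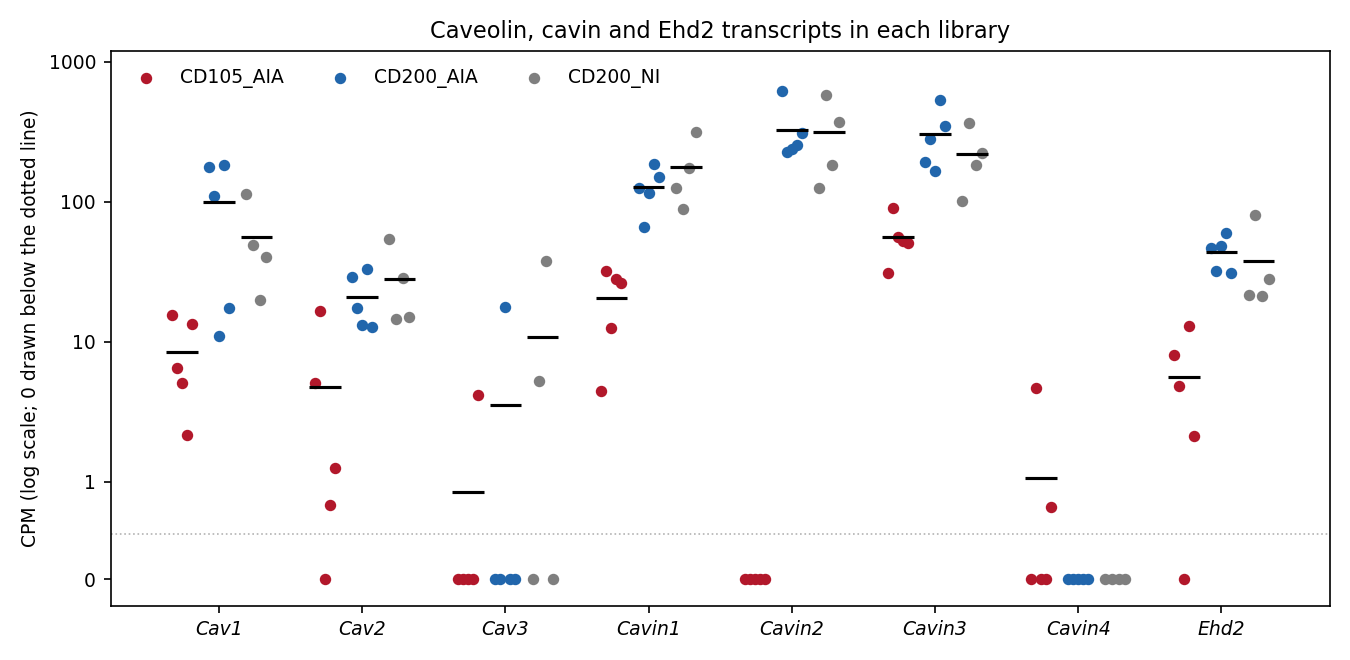
Level of each gene in each library in CPM (log scale, with 0 drawn below the dotted line). Points are libraries of CD105_AIA (red), CD200_AIA (blue) and CD200_NI (grey), and black bars are group means. Cavin2 is at 0 in all 5 CD105_AIA libraries and at 126 CPM or more in each of the 9 CD200+ libraries.

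Cavin2 (ENSMUSG00000045954, GRCm38 chromosome 1, 51289126 to 51302960, plus strand) encodes a cavin that binds phosphatidylserine and helps to shape caveolae. It had 0 counts in each of the 5 CD105_AIA libraries. In CD200_AIA libraries 5 to 9 it stood at 614, 227, 239, 253 and 309 CPM, and in CD200_NI libraries 1 to 4 at 126, 580, 184 and 371 CPM. Every CD200+ library was therefore far above every CD105_AIA library, and the CD200+ groups overlapped. Taking 3 counts over the CD105_AIA group as the floor (0.0477 CPM), Cavin2 was at least 6888-fold lower in CD105_AIA than in CD200_AIA (328 ± 163 CPM, SD, n = 5; edgeR adjusted p = 4.14e-05). It was at least 6616-fold lower than in CD200_NI (315 ± 205 CPM, SD, n = 4; edgeR adjusted p = 5.15e-05). Without library 5, at 614 CPM, the bound against CD200_AIA was 5391-fold. Without library 2, at 580 CPM, the bound against CD200_NI was 4766-fold. Floors cover counting error only. Over all tested genes, 589 had no count in any CD105_AIA library, and 52 of these, 0.346% of the genes tested, had counts in all 9 CD200+ libraries. Ranked by the lowest CD200+ level, Cavin2 came first among the 52, at 126 CPM. Its antisense neighbour 9330175M20Rik had 43 counts, all in library 9.

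Cavin1 (ENSMUSG00000004044, chromosome 11, 100956733 to 100970887, minus strand) encodes the cavin that caveolae cannot form without. In CD105_AIA libraries 10 to 14 it stood at 4.44, 32.1, 12.6, 27.8 and 26.5 CPM. It was at 125, 65.5, 115, 186 and 151 CPM in CD200_AIA libraries 5 to 9, and at 126, 89.1, 176 and 316 CPM in CD200_NI libraries 1 to 4. All CD105_AIA libraries lay below all CD200+ libraries, library 10 lowest of all, and the CD200+ groups overlapped. Cavin1 fell by 2.63 on the log2 scale in CD105_AIA relative to CD200_AIA (SE 0.53, edgeR adjusted p = 0.00761), and by 3.09 relative to CD200_NI (SE 0.55, edgeR adjusted p = 0.00353).

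Cavin3 (ENSMUSG00000037060, chromosome 7, 105480083 to 105482300, minus strand) encodes a cavin that binds protein kinase C delta. It was at 30.8, 90.0, 55.7, 52.4 and 50.7 CPM in CD105_AIA libraries 10 to 14. It was at 194, 281, 166, 531 and 347 CPM in CD200_AIA libraries 5 to 9 and at 101, 367, 182 and 225 CPM in CD200_NI libraries 1 to 4. Here too no CD105_AIA library reached a CD200+ library, although the highest, library 11, came close to library 1. Cavin3 fell by 2.44 on the log2 scale relative to CD200_AIA (SE 0.42, edgeR adjusted p = 0.00326) and by 1.97 relative to CD200_NI (SE 0.43, edgeR adjusted p = 0.0102). Gm45667, annotated on the other strand over Cavin3, was not analysed here.

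Cavin4 (ENSMUSG00000028348, chromosome 4, 48663514 to 48673502, plus strand) encodes the cavin of heart and skeletal muscle. It had 78 counts (4.66 CPM) in CD105_AIA library 11, 9 counts (0.66 CPM) in library 14 and 0 counts in the other 12 libraries. It did not pass the filter on low counts and was not tested.

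Cav1 (ENSMUSG00000007655, chromosome 6, 17306335 to 17341452, plus strand) encodes the main structural caveolin outside striated muscle. In CD105_AIA libraries 10 to 14 it stood at 15.5, 6.51, 5.06, 2.16 and 13.3 CPM. In CD200_AIA libraries 5 to 9 it stood at 177, 111, 11.0, 182 and 17.5 CPM, and in CD200_NI libraries 1 to 4 at 113, 48.9, 19.8 and 40.3 CPM. CD200_AIA fell into high libraries (5, 6 and 8) and low ones (7 and 9), and library 7 lay below CD105_AIA library 10, so these groups overlapped. CD105_AIA and CD200_NI did not overlap. Cav1 fell by 3.55 on the log2 scale relative to CD200_AIA (8.51 ± 5.67 CPM in CD105_AIA, 99.7 ± 82.9 CPM in CD200_AIA, SD, n = 5 each; SE 0.87, edgeR adjusted p = 0.0186). Without the 3 libraries over 80% spike-ins, which include 2 of the high ones, the log2 difference was -2.99 and did not pass (edgeR adjusted p = 0.0727; range over all alternatives 5.27e-05 to 0.480). Relative to CD200_NI (55.6 ± 40.4 CPM, SD, n = 4) the log2 difference was -2.71 and did not pass (SE 0.86, edgeR adjusted p = 0.0520), while with RLE scaling it did (-3.01, edgeR adjusted p = 0.0399; range over all alternatives 0.00330 to 0.546).

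Cav2 (ENSMUSG00000000058, chromosome 6, 17281185 to 17289115, plus strand) encodes the caveolin that forms complexes with caveolin-1, and the gene ends 17.2 kb before Cav1 begins. It was at 5.10, 16.6, 0, 0.68 and 1.25 CPM in CD105_AIA libraries 10 to 14. It was at 28.8, 17.3, 13.1, 33.1 and 12.8 CPM in CD200_AIA libraries 5 to 9 and at 54.2, 14.5, 28.6 and 14.9 CPM in CD200_NI libraries 1 to 4. Libraries 10, 12, 13 and 14 lay below all CD200+ libraries, and library 11 lay inside the CD200+ range. The log2 difference was -2.15 relative to CD200_AIA (95% interval -4.65 to 0.35, edgeR adjusted p = 0.266) and -2.57 relative to CD200_NI (95% interval -5.18 to 0.05, edgeR adjusted p = 0.180), and neither passed. Other tools did call it. Cav2 passed relative to CD200_AIA with limma voom (-3.17, adjusted p = 0.0269) and relative to CD200_NI with DESeq2 (-2.91, adjusted p = 0.0269) and limma voom (-4.10, adjusted p = 0.00532). Over all alternatives the adjusted p reached 0.934 against CD200_AIA and 0.734 against CD200_NI. The antisense gene Gm15581, which overlaps Cav1 and Cav2, had 9 counts, all in library 9.

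Cav3 (ENSMUSG00000062694, chromosome 6, 112459505 to 112472872, plus strand) encodes the caveolin of striated muscle. It had counts in 4 of 14 libraries, at 4.19 CPM (57 counts) in CD105_AIA library 14, 17.6 CPM (234 counts) in CD200_AIA library 7, and 5.21 CPM (28 counts) and 37.9 CPM (602 counts) in CD200_NI libraries 2 and 3. The other 10 libraries had 0 counts, so each group held libraries with and without the transcript. No comparison passed (edgeR adjusted p = 0.698 for CD105_AIA against CD200_AIA, 0.457 for CD105_AIA against CD200_NI, and 1 for CD200_AIA against CD200_NI). Skeletal muscle markers summed to 109 CPM in library 14, 903 in library 7, 39.1 in library 2 and 313 in library 3. Of the 109 CPM in library 14, Mylpf made up 95.9 CPM, and this gene was at 57.1 CPM or more in every CD105_AIA library, also those with Cav3 at 0. In library 9, with Cav3 at 0, the markers summed to 405 CPM. The part of muscle RNA in the Cav3 levels was not tested.

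Ehd2 (ENSMUSG00000074364, chromosome 7, 15946958 to 15967567, minus strand), the gene of the neck ATPase, was at 7.99, 4.84, 0, 12.9 and 2.13 CPM in CD105_AIA libraries 10 to 14. It was at 46.5, 32.1, 48.3, 59.5 and 30.8 CPM in CD200_AIA libraries 5 to 9 and at 21.5, 80.2, 21.1 and 28.0 CPM in CD200_NI libraries 1 to 4. All CD105_AIA libraries lay below all CD200+ libraries, with library 12 at 0. The log2 difference was -2.96 relative to CD200_AIA (95% interval -5.12 to -0.81, edgeR adjusted p = 0.0722) and -2.76 relative to CD200_NI (95% interval -4.95 to -0.56, edgeR adjusted p = 0.0894), and neither passed. Without library 12 both passed, at -2.64 (edgeR adjusted p = 0.0338) and -2.43 (edgeR adjusted p = 0.0431). Over all alternatives the adjusted p ranged between 0.00202 and 0.438 against CD200_AIA and between 0.00335 and 0.665 against CD200_NI.

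**Figure D2:**
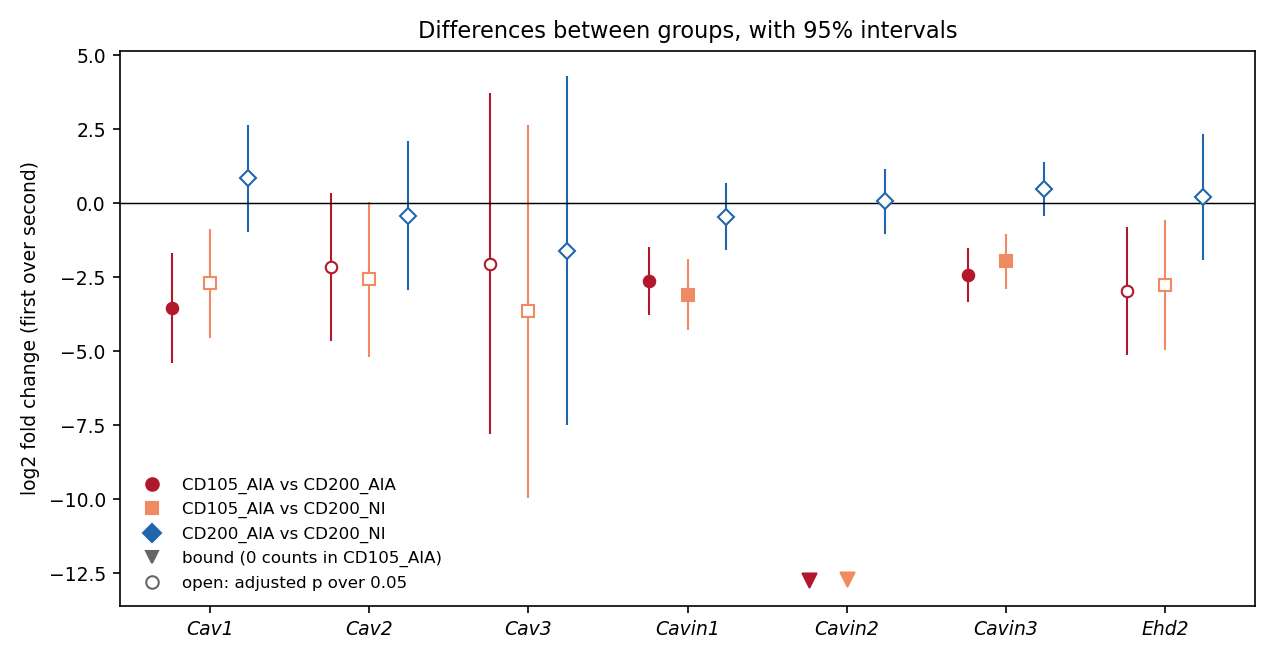
Log2 fold change of the 7 tested genes in the 3 comparisons, first group over second, with 95% intervals from the edgeR fit. Filled symbols have an adjusted p under 0.05, open symbols do not, and triangles are bounds for Cavin2, which had 0 counts in CD105_AIA. All intervals of CD200_AIA against CD200_NI include 0.

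Set side by side, 4 of the 7 tested genes (Cav1, Cavin1, Cavin2 and Cavin3) were called lower and 0 higher in CD105_AIA relative to CD200_AIA. Over all 15015 tested genes, 6.48% were called lower and 4.79% higher in that comparison. In 4 of the 7 (Cavin1, Cavin2, Cavin3 and Ehd2) all CD105_AIA libraries lay below all CD200_AIA libraries, which held for 6.33% of all tested genes. Relative to CD200_NI, 3 (Cavin1, Cavin2 and Cavin3) were called lower and 0 higher, with 7.63% of all tested genes called lower and 5.57% called higher. There 5 of the 7 did not overlap, the same 4 and Cav1, against 11.5% of all tested genes. These comparisons share the CD105_AIA libraries. The median log2 difference of the 7 genes was -2.63 against CD200_AIA and -2.76 against CD200_NI, while over all tested genes it was -0.05 and -0.24. Since the genes were chosen with these contrasts known, nothing is read from these counts.

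With library sizes taken from the spike-ins, the median over all tested genes moved to 1.23 in both comparisons of CD105_AIA, so levels then read higher for most genes in those cells. All 7 genes still read lower, but Cavin2 was the only one called. Against CD200_AIA the log2 difference was then -1.16 for Cavin1, -1.04 for Cavin3 and -1.52 for Cav1 (edgeR adjusted p = 0.547, 0.535 and 0.480), or -2.39, -2.27 and -2.75 relative to that median. Against CD200_NI it was -1.50 for Cavin1 and -1.33 for Cav1 (edgeR adjusted p = 0.461 and 0.546). For Cavin3 it was then -0.10 (edgeR adjusted p = 0.963), near 0, or -1.33 relative to the median.

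Arthritis itself was compared within the CD200+ phenotype, CD200_AIA against CD200_NI. None of the 7 tested genes passed, 0% of all tested genes did (0 of 15015, lowest edgeR adjusted p = 0.636), and 915 genes had an unadjusted p under 0.05, none of them a caveolar gene. DESeq2 called 194 genes and limma voom 4, again with 0 of the 7. The intervals show how much change these libraries leave possible. They were narrowest for the cavins, with a log2 difference of 0.48 for Cavin3 (95% interval -0.45 to 1.40), 0.06 for Cavin2 (-1.03 to 1.15) and -0.46 for Cavin1 (-1.59 to 0.67). For Cav1 the log2 difference was 0.84 (-0.97 to 2.66), for Ehd2 0.21 (-1.92 to 2.33), for Cav2 -0.42 (-2.95 to 2.11) and for Cav3 -1.61 (-7.51 to 4.30). Cavin2 and Ehd2 turned to the other sign with RLE scaling.

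The make-up of the family was compared per kilobase of exon (CPM per kb), since levels of different genes need a common length. In CD105_AIA the order was Cavin3 at 33.7 ± 12.9, Cavin1 at 5.77 ± 3.25, Cav1 at 2.47 ± 1.65, Cav2 at 1.42 ± 2.08 and Ehd2 at 1.09 ± 0.99 CPM per kb (SD, n = 5). Cav3 (0.724), Cavin4 (0.518) and Cavin2 (0) followed. Only the step between Cavin3 and Cavin1 was free of overlap between libraries. In CD200_AIA the order was Cavin3 at 183 ± 87.8, Cavin2 at 107 ± 53.3, Cavin1 at 35.8 ± 12.4, Cav1 at 28.9 ± 24.1, Ehd2 at 8.49 ± 2.35, Cav2 at 6.30 ± 2.81 and Cav3 at 3.04 ± 6.80 CPM per kb (SD, n = 5). There only Cavin2 and Cavin1 did not overlap. In CD200_NI it was Cavin3 at 132 ± 67.1, Cavin2 at 103 ± 67.1, Cavin1 at 49.2 ± 27.7, Cav1 at 16.1 ± 11.7, Cav3 at 9.32 ± 15.8, Cav2 at 8.41 ± 5.58 and Ehd2 at 7.36 ± 5.57 CPM per kb (SD, n = 4). All neighbours in that order overlapped except Ehd2 and Cavin4, which had no count. By group mean, cavins thus held the first 3 places in both CD200+ groups, and in CD105_AIA the first 2, with Cavin2 last. Single libraries differed, since Cav1 stood above Cavin1 in CD200_AIA libraries 5, 6 and 8 and in CD105_AIA library 10. Cavin2 made up 15.6 to 47.7% of the family's summed CPM per kb in CD200_AIA and 21.7 to 40.0% in CD200_NI.

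**Figure D3:**
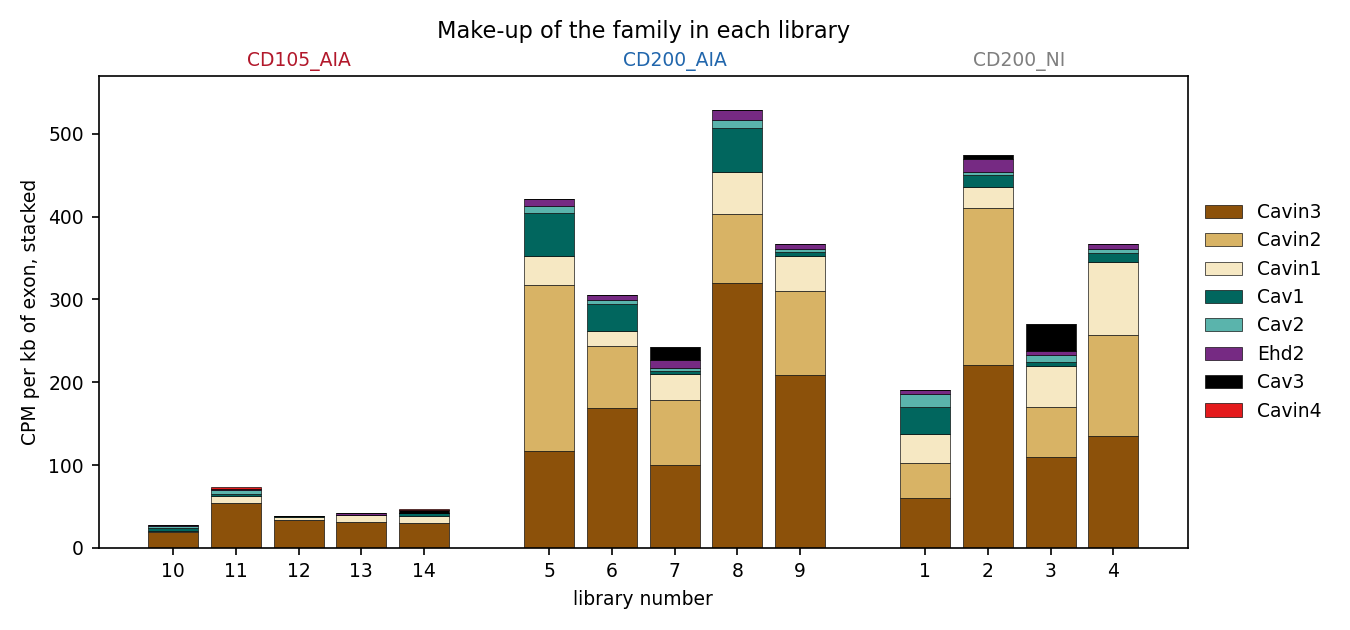
Stacked level of the 8 genes in each library, in CPM per kb of exon. Libraries are grouped as CD105_AIA, CD200_AIA and CD200_NI. In CD105_AIA the bars are short and mostly Cavin3, with Cavin2 absent, while Cavin3 and Cavin2 fill most of each bar of the CD200+ libraries.

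Cavin1 and Cav1, the pair that caveolae need in most cells, did not keep a fixed ratio. The ratio of Cavin1 to Cav1 in CPM per kb was 0.274, 4.74, 2.39, 12.4 and 1.91 in CD105_AIA libraries 10 to 14. It was 0.675, 0.568, 10.0, 0.982 and 8.25 in CD200_AIA libraries 5 to 9, and 1.07, 1.75, 8.49 and 7.53 in CD200_NI libraries 1 to 4. All groups overlapped on it, and each held libraries near or below 2 and libraries above 4. Over the 9 CD200+ libraries Cav1 spanned 16.4-fold between the lowest and the highest library, against 4.82-fold for Cavin1, 4.86-fold for Cavin2, 5.27-fold for Cavin3, 3.80-fold for Ehd2 and 4.23-fold for Cav2. The 4 CD200+ libraries with a ratio above 7 (3, 4, 7 and 9) had Cav1 between 11.0 and 40.3 CPM. Among the other 5, libraries 2, 5 and 6 are those with over 80% spike-ins. The part of library quality in this pattern was not tested.

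**Figure D4:**
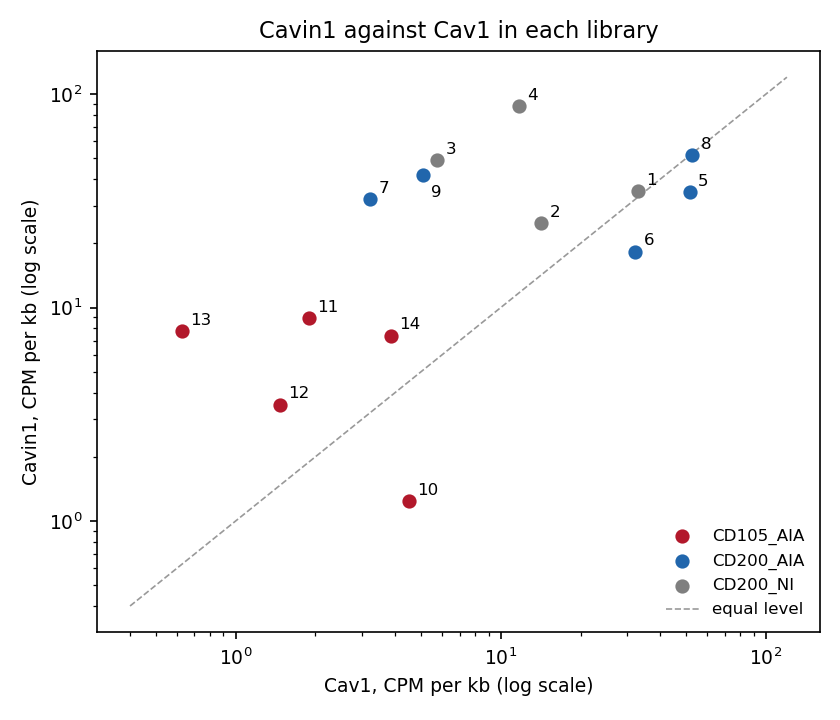
Cavin1 against Cav1 in each library, in CPM per kb on log scales, with library numbers beside the points and a dashed line at equal levels. CD200+ libraries span 16.4-fold on the Cav1 axis and 4.82-fold on the Cavin1 axis, and all CD105_AIA libraries lie below them on Cavin1.

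Across the 9 CD200+ libraries the log2 level of Cav1 was set against each of the other 6 tested genes, with exact two-sided permutation of pairings. Cav2 had Pearson r = 0.617 (exact p = 0.0766, adjusted over the 6 pairs 0.230) and Spearman rho = 0.817 (exact p = 0.0108, adjusted 0.0646). The Pearson r for Cav2 was 0.470 without libraries 7 and 8, the 2 farthest from the median of Cav1, and 0.755 in the 6 libraries under 80% spike-ins. Cav3 had r = -0.659 (exact p = 0.0595, adjusted 0.230) and rho = -0.574 (exact p = 0.107, adjusted 0.321), with 6 of the 9 libraries at 0. For Cavin1, Cavin2, Cavin3 and Ehd2, r lay between -0.163 and 0.181 and rho between 0.033 and 0.267 (lowest exact p = 0.493). None of the 6 pairs passed the adjustment. The 5 CD105_AIA libraries were left out, since they form a separate cluster too small for a correlation.

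The genes most like Cav1 and Cavin1 were taken as those with the smallest root mean square difference between mean-centred log2 CPM profiles over the 14 libraries, among 8809 genes. This is a description, since the libraries share their group structure. Nearest to Cavin1 were Pmepa1 (0.45), Antxr1 (0.47), Neat1 (0.49), Ltbp3 (0.49) and Zfp36l2 (0.50). Pmepa1, for example, averaged 20.5 CPM in CD105_AIA, 177 CPM in CD200_AIA and 206 CPM in CD200_NI. Of the family, Cavin3 was nearest to Cavin1 (0.94), and Cav1 was at 1.69. Nearest to Cav1 were Plcg1 (1.12), Pik3ca (1.14), Snx7 (1.14), Ctsl (1.14) and Lmbrd1 (1.18), all at a greater distance than the 5 genes nearest to Cavin1.

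Other genes of caveola biology were followed in 6 lists of 77 genes. In CD105_AIA relative to CD200_AIA, 13 of them were called and relative to CD200_NI 17, while in CD200_AIA relative to CD200_NI 0 were called. The counts per list below are set beside the same shares over all tested genes given above and carry no test of the list.

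YAP/TAZ and MRTF/SRF are transcriptional regulators that respond to stretch and actin. Of their 13 genes 12 were tested, and relative to CD200_AIA 5 were called lower and 0 higher in CD105_AIA, with a median log2 difference of -3.15. Ankrd1, a YAP target, had 0 counts in CD105_AIA and was at 2.24 to 334 CPM in CD200_AIA, at least 2027-fold lower in CD105_AIA (edgeR adjusted p = 0.00229). Without library 5, the one at 334 CPM, that bound was 779-fold. Wwtr1, which encodes TAZ, was at 10.9 ± 11.5 CPM in CD105_AIA and 107 ± 31.5 CPM in CD200_AIA (SD, n = 5 each; log2 difference -3.30, SE 0.62, edgeR adjusted p = 0.00548). Tead1, a DNA-binding partner of YAP and TAZ, was at 4.28 ± 2.81 CPM in CD105_AIA and 48.8 ± 33.8 CPM in CD200_AIA (log2 difference -3.51, SE 0.70, edgeR adjusted p = 0.00693). Ccn1, a secreted matrix protein and YAP target, was at 19.7 ± 31.5 CPM in CD105_AIA and 499 ± 46.9 CPM in CD200_AIA (log2 difference -4.66, SE 1.07, edgeR adjusted p = 0.0145). Amotl2 was the fifth called. Ccn2 and Yap1 also read lower but were not called (log2 difference -0.93 and -3.00, edgeR adjusted p = 0.675 and 0.169). Relative to CD200_NI, 6 were called lower and 0 higher, with a median of -3.59.

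Receptors and enzymes reported in caveolae numbered 11, of which 10 were tested and 5 called lower, 0 higher, relative to CD200_AIA (median log2 difference -2.61). Bmpr2, a BMP receptor, was at 9.76 ± 6.34 CPM in CD105_AIA and 112 ± 31.7 CPM in CD200_AIA (SD, n = 5 each; log2 difference -3.52, SE 0.58, edgeR adjusted p = 0.00225). Tgfbr1, a TGF-beta receptor, was at 15.5 ± 12.4 CPM in CD105_AIA and 85.7 ± 35.1 CPM in CD200_AIA (log2 difference -2.47, SE 0.62, edgeR adjusted p = 0.0220). Egfr, the EGF receptor, was at 12.1 ± 13.3 CPM in CD105_AIA and 81.7 ± 3.72 CPM in CD200_AIA (log2 difference -2.75, SE 0.73, edgeR adjusted p = 0.0270), and Igf1r, the IGF-1 receptor, also fell (log2 difference -2.25, SE 0.63, edgeR adjusted p = 0.0350). Src, the kinase that phosphorylates caveolin-1, had 0 counts in CD105_AIA and was at 0 to 5.98 CPM in CD200_AIA, so the groups overlapped at 0. Its mean was at least 61.2-fold lower in CD105_AIA than in CD200_AIA (2.92 ± 2.85 CPM, SD, n = 5, edgeR adjusted p = 0.0441). Without library 8 that bound was 45.1-fold. Relative to CD200_NI, Bmpr2, Tgfbr1, Egfr, Igf1r and Src were called lower and 0 genes higher.

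Membrane-shaping partners, a list of EHD, pacsin and dynamin genes together with Ror1, moved less evenly. Of 9 tested, 1 was called lower and 0 higher relative to CD200_AIA, with a median log2 difference of -0.31. That gene, Ror1, a receptor kinase reported in human cells to scaffold caveolins and cavins, was at 0.362 ± 0.510 CPM in CD105_AIA and 43.1 ± 22.8 CPM in CD200_AIA (SD, n = 5 each; log2 difference -6.78, SE 1.34, edgeR adjusted p = 0.00678). The Ehd2 paralogues Ehd1 and Ehd4 had log2 differences of 2.21 and 1.13 and did not pass (edgeR adjusted p = 0.404 and 0.630), nor did Ehd3, at -2.96 (edgeR adjusted p = 0.308). Relative to CD200_NI, Ror1 and Pacsin1 were called lower and 0 were called higher.

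Lists of other membrane domains and uptake routes served for comparison. Of 5 tested flotillin and stomatin genes, which encode other scaffold proteins of membrane microdomains, 0 were called relative to CD200_AIA (median log2 difference -0.11). Stom, which encodes a membrane protein abundant in red cells, was at 139 ± 95.2 CPM in CD105_AIA and 3.03 ± 5.62 CPM in CD200_AIA (SD, n = 5 each; log2 difference 5.49, SE 1.70, edgeR adjusted p = 0.0520). Relative to CD200_NI, Stom and Stoml2 were called higher and 0 lower. Of 14 genes of the clathrin coat and its adaptor AP-2, 1 was called higher (Ap2s1, log2 difference 1.22, SE 0.36, edgeR adjusted p = 0.0413) and 1 lower (Epn2, -5.99, SE 1.40, edgeR adjusted p = 0.0153) relative to CD200_AIA, with a median of 0.73. The clathrin heavy chain gene Cltc was at 216 ± 84.0 CPM in CD105_AIA and 195 ± 97.0 CPM in CD200_AIA (SD, n = 5 each; log2 difference 0.15, SE 0.43, edgeR adjusted p = 0.875). Of 24 genes of cholesterol synthesis and uptake 0 were called relative to CD200_AIA (median -0.54). With library sizes from the spike-ins, 11 of 12 YAP/TAZ and MRTF/SRF genes and 7 of 10 receptor and enzyme genes still read lower relative to CD200_AIA (medians -2.27 and -0.88). The medians of the EHD and pacsin, flotillin and cholesterol lists turned positive (0.64, 1.20 and 0.80) under that scaling. The median over all tested genes also turned positive (1.23). Relative to it these lists were at -0.59, -0.031 and -0.43, compared with -0.26, -0.059 and -0.49 under TMM scaling. With spike-in sizes 1 YAP/TAZ and MRTF/SRF gene and 0 receptor and enzyme genes were called.

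**Figure D5:**
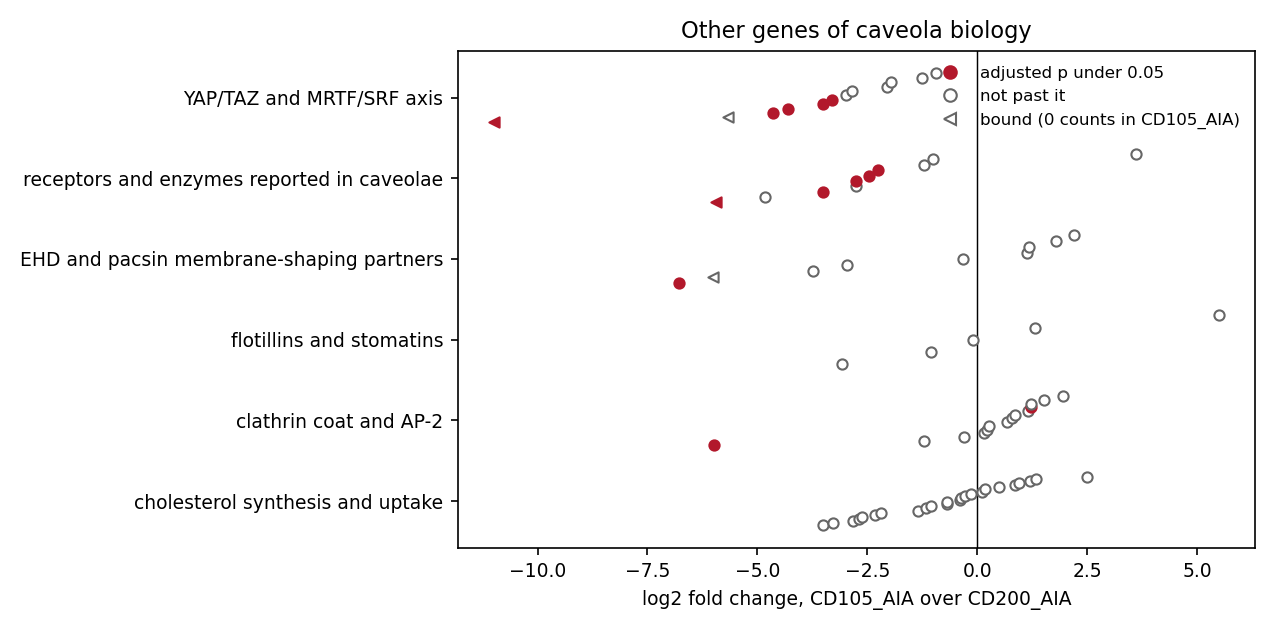
Log2 fold change of the tested genes of 6 lists of caveola biology, CD105_AIA over CD200_AIA. Each symbol is a gene, red where the edgeR adjusted p is under 0.05, and triangles are bounds for genes with 0 counts in CD105_AIA. All 12 YAP/TAZ and MRTF/SRF genes lie left of 0, and 11 of the 14 clathrin genes lie right of it.

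Summed markers of mural cells, satellite cells, osteoblasts and adipocytes were lower in CD105_AIA than in both CD200+ groups. Those of endothelial cells, fibroblasts and skeletal muscle, where caveolae are also common, overlapped between CD105_AIA and CD200_AIA. For fibroblast markers that overlap rested on CD200_AIA library 6 alone (909 CPM, with 92.0% spike-ins). Fibroblast sums of all CD105_AIA libraries lay below those of all CD200_NI libraries. Mural cell markers, for pericytes and smooth muscle, had counts for 9 of 10 genes in CD105_AIA (Myh11 at 0) and for all 10 in both CD200+ groups. They summed to 3.77 to 311 CPM in CD105_AIA, 816 to 1885 CPM in CD200_AIA and 619 to 1428 CPM in CD200_NI. Satellite cell markers had counts for 2 of 6 genes in CD105_AIA (Pax7, Myf5, Cdh15 and Chrdl2 at 0) and for all 6 in both CD200+ groups, and summed to 0 to 7.64 CPM in CD105_AIA, 635 to 1253 CPM in CD200_AIA and 379 to 1869 CPM in CD200_NI. Osteoblast markers had counts for 9 of 10 genes in CD105_AIA (Runx2 at 0) and all 10 in both CD200+ groups, and summed to 75.0 to 526 CPM in CD105_AIA, 23417 to 42451 CPM in CD200_AIA and 36228 to 121558 CPM in CD200_NI. Adipocyte markers summed to 0 to 118 CPM in CD105_AIA (4 of 9 genes with counts), 248 to 2376 CPM in CD200_AIA (5 of 9) and 134 to 2693 CPM in CD200_NI (4 of 9), with Plin1, Lep and Retn at 0 in every group. Spp1, the leading osteoblast marker of CD200_AIA library 5, made up 32267 CPM there, and the other 9 summed to 167 CPM, within the CD105_AIA range. For the sums of these 4 lists all CD105_AIA libraries lay below all CD200+ libraries, as they did for Cavin1, Cavin2 and Cavin3. The adipocyte separation rested on Adipoq, at 0 in CD105_AIA. Without it CD200_AIA library 8 summed to 114 CPM, below CD105_AIA library 11 at 118 CPM. Single mural genes such as Rgs5 and Mcam overlapped, at 65.5 and 41.9 CPM in CD105_AIA library 13 and 0 in CD200_AIA library 6. Notch3, Tagln and Des did not overlap, and Des stands in both the mural and the satellite cell list.

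Other markers moved otherwise. Erythroid markers summed to 27286 to 247158 CPM in CD105_AIA (10 of 10 genes with counts), 4.23 to 10360 CPM in CD200_AIA (5 of 10, with Klf1, Gata1, Epor and Slc4a1 among those at 0) and 1169 to 10150 CPM in CD200_NI (9 of 10, with Gata1 at 0). Endothelial markers, of a cell type rich in caveolae, summed to 46.0 to 72.3 CPM in CD105_AIA (Tie1 and Cldn5 at 0), 0.303 to 141 CPM in CD200_AIA (Tie1 and Robo4 at 0) and 0.186 to 51.5 CPM in CD200_NI (Plvap and Cldn5 at 0), with counts for 10 of 12 genes in each group. Most of the CD105_AIA sum was Egfl7, Vwf and Plvap, which had counts in every library there. Cdh5, Tek, Emcn and Robo4 had counts in CD105_AIA only in library 11. In CD200_NI, Cdh5, Emcn, Robo4, Egfl7, Esam and Tie1 had counts only in library 1. Skeletal muscle markers summed to 73.8 to 186 CPM in CD105_AIA (6 of 12 genes with counts, Ckm among those at 0), 0.604 to 903 CPM in CD200_AIA (12 of 12) and 33.9 to 313 CPM in CD200_NI (10 of 12). Most of the muscle sum in CD105_AIA was Mylpf, a myosin light chain, at 57.1 to 186 CPM there, 0 to 9.86 CPM in CD200_AIA and 0 to 12.6 CPM in CD200_NI. The other 11 muscle genes summed to 0.227 to 16.7 CPM in CD105_AIA, 0.604 to 893 CPM in CD200_AIA and 29.0 to 301 CPM in CD200_NI. Macrophage markers summed to 5506 CPM in CD105_AIA library 11 and to 4.22 to 22.4 CPM in the other 4 CD105_AIA libraries, 0 to 62.4 CPM in CD200_AIA and 0 to 292 CPM in CD200_NI. Library 11 is also the CD105_AIA library with the highest Cavin1 (32.1 CPM), Cavin3 (90.0 CPM), Cav2 (16.6 CPM) and Cavin4 (4.66 CPM). Its summed level of the family (155 CPM) was the highest in CD105_AIA too. Cav1, Cav3 and Ehd2 were highest in other CD105_AIA libraries. Fibroblast markers summed to 1407 to 3762 CPM in CD105_AIA, 909 to 6889 CPM in CD200_AIA and 3956 to 8113 CPM in CD200_NI. Cartilage markers summed to 46.5 to 5542 CPM in CD105_AIA, 127 to 5205 CPM in CD200_AIA and 1211 to 18450 CPM in CD200_NI. Without Prg4, which encodes lubricin and is also made by synovial lining cells, the cartilage sum was 16.8 to 23.97 CPM in CD105_AIA libraries 10, 11, 13 and 14 and 5455 CPM in library 12. It was then 127 to 4554 CPM in CD200_AIA and 1187 to 18449 CPM in CD200_NI. The part of these cell types in the levels of the caveolar genes was not tested.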

How the data were processed

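The authors deposited a table of whole-number counts per gene for all 14 libraries, with 47729 genes and 92 spike-ins, per the file headers and the values. Builds GRCm38 and mm10 and the tools HISAT2, StringTie, cutadapt and edgeR stand in the submitters' processing notes with no version. Whether counting used the strand is not stated there, so sense and antisense reads cannot be told apart. A further deposited table, named as normalized, holds the same raw counts for 14322 genes and served only as an alternative choice of genes. GENCODE M21 gave symbols for 47224 gene IDs, and exon lengths for CPM per kb.

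edgeR 4.0.16 (R 4.3.3) was used with filterByExpr (minimum count 10), TMM scaling of gene counts and 1 robust quasi-likelihood fit with 3 groups. The common biological coefficient of variation was 1.28. The two-sided p-values were adjusted by Benjamini-Hochberg over 15015 genes, with a threshold of 0.05. A standard error is the absolute log2 difference divided by the square root of F, and intervals are 95%. Correlations used edgeR log2 CPM, with a prior count of 2, scaled by library size, added to the counts. Exact permutation went through all pairings (numpy 2.4.6), with ranks from scipy 1.17.1. Floors cover counting error only, as no molecular identifiers mark PCR copies.

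All 8 genes are named. From each list the text names members from the 4 with the smallest p in CD105_AIA against CD200_AIA. It also names all those past the threshold where there are 4 or fewer. Outside that rule and chosen after their values were seen are Ehd1, Ehd3, Ehd4, Cltc, Amotl2, Src, Ccn2 and Yap1. Genes alike had at least 10 CPM on average and a regular symbol. The genes, lists and tests were chosen with earlier results of these data known. Alternatives were RLE and spike-in scaling, other filters, DESeq2 1.42.0, limma 3.58.1 voom with sample weights, fits of 2 groups, and leaving out libraries. Some genes of these lists are not reported here by name. The fit was tested on simulated data with a smaller spread than these data, so that test gives no error rate for them.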

Additional observations from a re-analysis of the deposited data

Results flagged for a closer look

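Of the 21 sets of values examined (a gene in a group, with at least 1 count), 6 held a library far from the others of its group. For normally distributed values chance alone flags about 1 in 20 such sets. These levels are skewed, and a gene with counts in a single library of its group, as Cav3 in CD105_AIA and CD200_AIA, always stands out. Cav3 stood out in every group, at 4.19 CPM in CD105_AIA library 14 and 17.6 CPM in CD200_AIA library 7, each with 0 counts in the other 4 libraries, and at 37.9 CPM in CD200_NI library 3, where the next highest library had 5.21 CPM. Cavin4 reached 4.66 CPM in CD105_AIA library 11, against 0.66 CPM or less in the other 4. Cavin2 reached 614 CPM in CD200_AIA library 5, against 309 CPM or less in the other 4, and this library is one with over 80% spike-ins. Ehd2 reached 80.2 CPM in CD200_NI library 2, against 28.0 CPM or less in the other 3, and this library is also over 80% spike-ins.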

How the results depend on the processing

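Cavin2 stayed lower and past the threshold in CD105_AIA against both CD200+ groups under each alternative run. Cavin1 and Cavin3 did so except with spike-in library sizes. Cav1 against CD200_AIA was not called with spike-in library sizes (edgeR adjusted p = 0.480), with voom or without the libraries over 80% spike-ins. Against CD200_NI, Cav1 was also called with RLE, the strict filter, DESeq2 and a fit of the 2 groups. Cav2 was called against CD200_AIA with voom and against CD200_NI with DESeq2 and voom. Ehd2 was called against both CD200+ groups with DESeq2, voom and without library 12. With spike-in library sizes 1 of the 7 genes, 570 of all genes and 1 of the 77 list genes were called against CD200_AIA, and 1, 272 and 2 against CD200_NI. The share of calls that read higher in CD105_AIA was then 72.3% against CD200_AIA and 59.9% against CD200_NI, compared with 42.5% and 42.2% with TMM scaling, and with RLE scaling it was 31.9% against CD200_NI. DESeq2 called 3269 genes against CD200_AIA and 3774 against CD200_NI, with 22 and 31 list genes, 194 genes for CD200_AIA against CD200_NI, and 6 of the 7 genes against CD200_NI. voom called 4624 genes and 35 list genes against CD200_AIA, 4993 genes, 34 list genes and 5 of the 7 against CD200_NI, and 4 genes for CD200_AIA against CD200_NI. With no filter 8 list genes were called against CD200_AIA. Leaving out 1 library at a time gave 4 to 5 of the 7 against CD200_AIA and 3 to 4 against CD200_NI. It gave 1090 to 1713 genes against CD200_AIA (fewest without library 14), 1308 to 1762 against CD200_NI (fewest without library 14) and 0 to 2 between the CD200+ groups (2 without library 3). List genes numbered 8 to 15 against CD200_AIA (8 without library 13 or 14) and 9 to 14 against CD200_NI (9 without library 4, 11 without 1, 13 or 14). Between CD200_AIA and CD200_NI, where no gene passed, signs turned. Cavin2 was at -0.11 with RLE, -0.025 with no filter and -0.11 with DESeq2, and between -0.27 and 0.51 with 1 library left out. Ehd2 was at -0.028 with RLE and -0.027 with DESeq2, and Cav1 at -0.72 with voom. Cav2 lay between -0.65 and 0.13, and Cav3 between -2.01 and 1.08, with 1 library left out. The cause of these differences was not tested. Levels near 1 CPM rest on few counts, since 3 counts equal 0.170 to 0.910 CPM per library, and no finer difference can be read for Cav3, Cavin4 or Cav2 in CD105_AIA. No paired analysis was possible because the libraries are numbered 1 to 14 and the groups share no replicate number. Whether the arthritic populations share animals is not stated, and a fit that pairs them was not run.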
